A study of Mus musculus with 12 samples.

Results

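ABC transporter genes encode membrane proteins that move lipids, bile salts, peptides, haem precursors and drugs with the energy of ATP. The genes considered here were all genes whose annotated symbol runs from the subfamily letter a to g after "Abc" and goes on with a number, a rule that uses no measured value. It took 41 of the 15267 genes tested, 5 of them exporters of cholesterol and other sterols (Abca1, Abcg1, Abcg4, Abcg5 and Abcg8) and 36 with other functions. Abca8a was singled out for attention with its result in these data already known. Abca5, Abca9, Abca12, Abca15, Abca16, Abca17 and Abcb5 belong to the family and were not analysed here. The label fits the genes in part, since Abce1 and the 3 Abcf genes encode soluble ATPases of the family that transport nothing. Abcc8 and Abcc9 encode subunits of potassium channels.

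RNA came from cultures of 3T3-L1 adipocytes, which are fat cells made from a clonal line of mouse fibroblasts, in 4 groups of 3 arrays. The groups were cells with an shRNA against TBLR1 and 10 µM isoproterenol for 3 h, cells with a control shRNA and the same isoproterenol, cells with the TBLR1 shRNA and no isoproterenol, and cells with the control shRNA and no isoproterenol. All 4 groups had received adenovirus at a multiplicity of infection of 500 on day 9 of differentiation, were kept for 3 days, and then spent 2 h in Krebs-Ringer buffer before treatment. No group without virus was among them, and the labels do not say whether the 3 arrays of a group came from separate cultures, so a p-value here measures the scatter of these arrays, which could be technical. TBLR1, the product of Tbl1xr1, belongs to the NCoR and SMRT corepressor complexes, and isoproterenol activates β-adrenergic receptors, through which cAMP and then lipolysis increase. The series asks what TBLR1 does when white fat cells release lipid.

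In the background of these genes, cholesterol leaves a cell when Abca1 loads it with phospholipid onto lipid-free apolipoprotein A-I and when Abcg1 passes sterol on to particles that already carry lipid. Both genes are classical targets of the liver X receptors LXRα and LXRβ, nuclear receptors that bind oxysterols and that sit with corepressors on their target genes when no ligand is bound. Other members import long-chain acyl-CoA into peroxisomes, export drugs, glutathione conjugates and cyclic nucleotides, or carry haem and iron-sulphur precursors across mitochondrial membranes.

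Values are levels on the log2 scale of the arrays, one probe set per gene, and changes are log2 differences with their SE (n = 3 arrays in every group). Adjusted p-values come from limma, corrected by Benjamini-Hochberg over all genes tested, and a gene rose or fell where its adjusted p lay under 0.05. An array gives no count, so the number of arrays and the spread between them set the precision. Within the groups the SD of a typical (median) gene was between 0.0486 and 0.0531. The targeted gene Tbl1xr1 stood at 54.9% of its control signal with the TBLR1 shRNA and isoproterenol (-0.86 ± 0.04, adjusted p = 2.3e-10) and at 57.7% in untreated cells (-0.79 ± 0.04, adjusted p = 8.36e-10). Markers of fat cells were present, with Adipoq and Fabp4 at the top of the arrays' range, and 7 of 9 measured adipocyte markers fell and 0 rose with the TBLR1 shRNA in either treatment (after centring on the hybridisation controls 5 fell with isoproterenol and 6 without it). The mean level of the 9 markers ran from 11.2 to 11.26 on the TBLR1 arrays with isoproterenol and from 11.69 to 11.75 on the matching control arrays. Without isoproterenol it ran from 11.2 to 11.26 on TBLR1 arrays and from 11.68 to 11.7 on control arrays. Of 6 preadipocyte markers, 2 rose and 1 fell with the TBLR1 shRNA in cells given isoproterenol, and 2 rose and 3 fell in untreated cells. After centring on the hybridisation controls 3 of them rose and 1 fell with isoproterenol, and 2 rose and 2 fell without it. Their mean level ran from 9.074 to 9.173 in TBLR1 cells and from 8.915 to 9.011 in control cells with isoproterenol, and from 9.049 to 9.115 in TBLR1 cells and from 9.029 to 9.119 in control cells without it. Of 9 macrophage markers, 2 rose and 1 fell in each comparison of shRNAs, or 3 rose and 0 fell after that centring. Their mean level lay between 6.602 and 6.635 in TBLR1 cells and between 6.484 and 6.567 in control cells with isoproterenol. Without isoproterenol these ranges were 6.523 to 6.552 in TBLR1 cells and 6.432 to 6.484 in control cells. The defining leukocyte marker Ptprc lay near the floor, at the 3.4 percentile of all genes. Cd14, the brightest of the 9, lay at the 84.1 percentile and made the largest rise, by 0.69 with isoproterenol and 0.45 without it. Since whole cultures were measured, fewer fat cells and less RNA per cell cannot be told apart, and the part of these marker shifts in the results was not tested.

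TBLR1 shRNA changed a minority of the ABC genes, most of them downward in the deposited scaling, a balance that turned with isoproterenol after centring on the hybridisation controls. With isoproterenol present 13 of 41 fell and 2 rose, or 36.6%, against 41.7% of all genes tested, with 22.3% falling and 19.5% rising. In untreated cells 9 of 41 fell and 1 rose, or 24.4%, against 37.7% of all genes, with 20.0% falling and 17.7% rising. The share of ABC genes called was thus close to that of all genes with isoproterenol and below it in untreated cells. The median log2 difference of the members was -0.0579 with isoproterenol, beside -0.00781 for all genes, and 0.00293 in untreated cells, beside -0.0101. Their median absolute difference was 0.0983 with isoproterenol, beside 0.0957 for all genes, and 0.0521 in untreated cells, beside 0.0872. At least 1.5-fold changes were found for 2 members with isoproterenol (5.39% of all genes) and for 1 member in untreated cells (4.02%).

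Most of the called genes were called in both treatments. These were Abca8a, Abcd2, Abcc4, Abcb1b, Abcd3, Abce1, Abcg8, Abcc5 and Abca3, 9 genes that fell each time. The 2 comparisons share no array but come from the same fit, with a shared estimate of the spread. How many of all genes were called in both was not counted, so this repeat cannot be set against all genes. Abcb6, Abca8b, Abca4, Abca2, Abcc1 and Abca7 were called with isoproterenol and not without it, and Abcf1 without it and not with it, although no member passed the test of the difference between the treatments. The other 25 genes passed in neither. Between the shRNAs the arrays had no overlap for 22 members with isoproterenol, 4 higher and 18 lower (49.1% of all genes), and for 13 in untreated cells, 2 higher and 11 lower (46.9%).

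How many members passed went with the strength of the signal. Of the 11 members in the lowest 33% of genes by mean level, 1 passed with isoproterenol (8.86% of all such genes) and 0 passed in untreated cells (6.58%). In the highest 33%, 6 of 11 members passed with isoproterenol (54.5%, against 70% of all such genes) and 5 of 11 in untreated cells (45.5%, against 65.4%). The balance of rises and falls depended on the scaling. Centring each array on its bacterial hybridisation controls, which moved the median of all genes to 0.104 with isoproterenol and 0.0603 in untreated cells, gave 9 rises and 6 falls with isoproterenol and 2 rises and 6 falls without it. Cyclic loess gave 5 rises and 12 falls with isoproterenol and 1 rise and 7 falls without it.

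**Figure D1:**
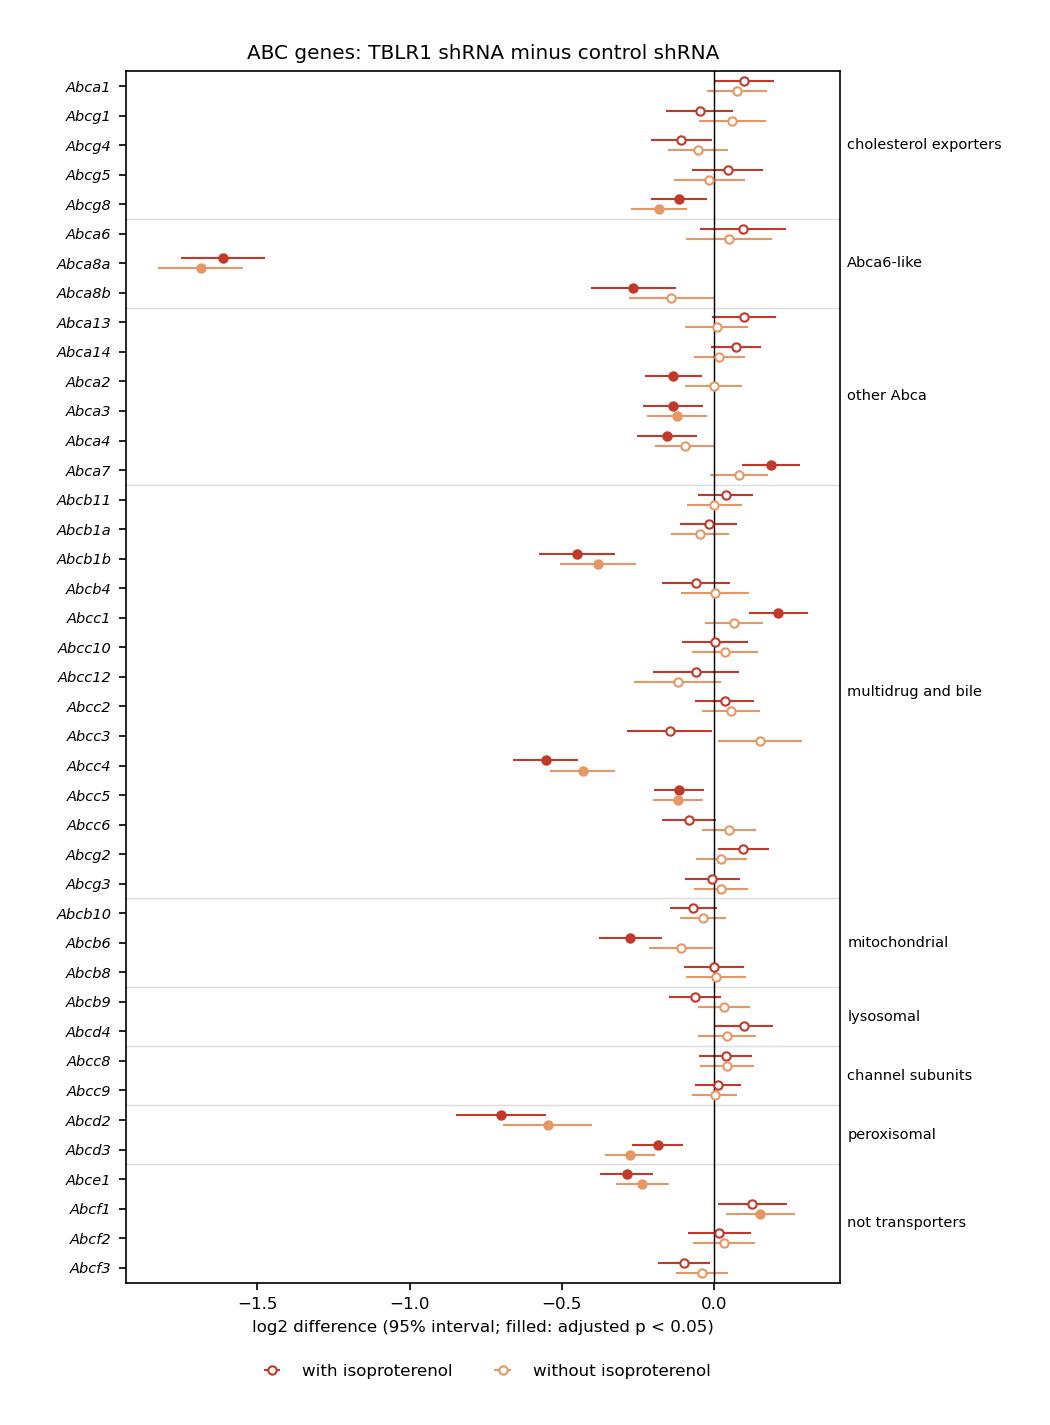
Log2 difference between TBLR1 and control shRNA (x axis) for each of the 41 ABC genes (rows, grouped by role), with isoproterenol in red and without it in orange. Points are estimates from 3 arrays per group, bars are 95% intervals, and filled points have an adjusted p under 0.05. Abca8a stands far to the left of all other members at -1.61 with isoproterenol and -1.69 without it, while Abca1 and Abcg1 lie near 0.

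Of the cholesterol exporters, neither Abca1 nor Abcg1 passed the test of the TBLR1 shRNA. Abca1 read 7.34, 7.32 and 7.39 on TBLR1 arrays with isoproterenol and 7.19, 7.33 and 7.24 on the matching control arrays. Without isoproterenol Abca1 read 7.33, 7.38 and 7.38 in TBLR1 cells and 7.32, 7.21 and 7.34 in control cells. The groups overlapped with isoproterenol by 1 control array and overlapped in untreated cells too, so that Abca1 differed by 0.10 ± 0.05 with isoproterenol (95% interval 0.00 to 0.20, adjusted p = 0.105) and by 0.08 ± 0.05 without it (-0.02 to 0.17, adjusted p = 0.232). With isoproterenol Abca1 passed the test without control replicate 2 (0.14, adjusted p = 0.0372), with array weights (0.12, adjusted p = 0.0362) and with hybridisation control centring (0.21, adjusted p = 0.00795).

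Abcg1 read 10.03, 9.92 and 9.92 in TBLR1 cells with isoproterenol and 10.01, 10.04 and 9.95 in control cells with it. In untreated cells Abcg1 read 10.21, 10.30 and 10.30 with the TBLR1 shRNA and 10.25, 10.10 and 10.28 with the control shRNA. The shRNA groups overlapped in each treatment, whereas every treated array lay below every untreated one. The difference of Abcg1 between shRNAs was -0.05 ± 0.05 with isoproterenol (95% interval -0.16 to 0.06, adjusted p = 0.534) and 0.06 ± 0.05 in untreated cells (-0.05 to 0.17, adjusted p = 0.413). The value with isoproterenol was 0.06 (adjusted p = 0.41) with hybridisation control centring.

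Abcg8, which encodes one part of the sterol exporter of liver and gut, was the only exporter gene called. It read 6.86, 6.92 and 6.87 in TBLR1 cells with isoproterenol and 7.05, 6.97 and 6.97 in control cells. Without isoproterenol Abcg8 read 6.83, 6.75 and 6.84 in TBLR1 cells and 7.05, 6.94 and 6.97 in control cells, so all TBLR1 arrays lay below all control arrays. Abcg8 fell by 0.11 ± 0.04 with isoproterenol (adjusted p = 0.045) and by 0.18 ± 0.04 in untreated cells (adjusted p = 0.00335). Hybridisation control centring ended the call in untreated cells (-0.11, adjusted p = 0.206). The call with isoproterenol ended under 4 settings (that centring included) and without any of 6 arrays, namely control replicate 3 of the untreated cells, control replicates 1, 2 and 3 and TBLR1 replicates 1 and 3 with isoproterenol (adjusted p from 0.0517 to 0.175). Abcg5, whose product pairs with that of Abcg8 and whose gene is its neighbour on chromosome 17, differed by 0.05 ± 0.05 with isoproterenol and -0.01 ± 0.05 without it, and had no call. By mean level Abcg5 lay at the 18.2 percentile of genes and Abcg8 at the 44.6 percentile. Abcg4, a relative of Abcg1 known from the brain, differed by -0.11 ± 0.05 with isoproterenol and -0.05 ± 0.05 without it (adjusted p = 0.084 and 0.442). In all 1 of the 5 exporters fell and 0 rose in each comparison of shRNAs, beside 12 falls and 2 rises among the 36 other members with isoproterenol and 8 falls and 1 rise in untreated cells. No test between these groups of members was made.

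The promoters of Abca1, Abca8a and Abca8b are printed because Abca1 is the exporter that LXR is best known to control and the other two are neighbouring relatives, one with a large and one with a small difference between the shRNAs. Each runs from 250 bases before to 50 bases after the transcription start in RefSeq's annotation of GRCm38.p6, on the minus strand, at chr4:53159846-53160145 for Abca1, chr11:110095888-110096187 for Abca8a and chr11:109995796-109996095 for Abca8b. Capitals mark matches to the motifs named after the sequences.
Abca1: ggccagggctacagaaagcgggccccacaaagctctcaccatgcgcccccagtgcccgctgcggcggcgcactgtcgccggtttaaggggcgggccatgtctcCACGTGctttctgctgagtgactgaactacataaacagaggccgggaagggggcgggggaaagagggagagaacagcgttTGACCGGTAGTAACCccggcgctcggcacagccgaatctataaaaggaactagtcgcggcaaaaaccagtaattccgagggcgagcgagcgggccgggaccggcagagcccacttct
Abca8a: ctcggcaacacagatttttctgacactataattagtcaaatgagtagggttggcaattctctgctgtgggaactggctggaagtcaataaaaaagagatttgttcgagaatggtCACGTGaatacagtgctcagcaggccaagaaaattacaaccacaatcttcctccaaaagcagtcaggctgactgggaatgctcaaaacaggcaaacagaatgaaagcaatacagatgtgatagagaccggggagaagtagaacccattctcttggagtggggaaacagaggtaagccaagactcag
Abca8b: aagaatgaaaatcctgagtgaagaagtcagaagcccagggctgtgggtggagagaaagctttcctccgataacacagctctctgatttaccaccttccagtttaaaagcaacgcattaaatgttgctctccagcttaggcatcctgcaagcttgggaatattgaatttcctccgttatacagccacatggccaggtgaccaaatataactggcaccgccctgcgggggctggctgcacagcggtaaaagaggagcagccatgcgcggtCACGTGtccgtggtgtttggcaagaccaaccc

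The direct repeat typical of LXR sites, searched on both strands as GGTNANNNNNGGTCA in a form chosen after the Abca1 window had been seen, lay in the Abca1 promoter alone among the 38 windows of the 31 members that RefSeq's table covers. Its first base stood at -67 from the start. It occurs in 68 of 32851 windows of the same length, or 0.207%. The E-box CACGTG, a palindrome that can be read on both strands, lay in the windows of 5 members, namely Abca1 at -147, Abca8a at -136, Abca8b at 19 bases into the transcript, Abcc4 at -205 and Abcf1 at -101. It occurs in 7.15% of all windows and does not overlap the repeat in Abca1. The cAMP response element TGACGTCA lay in the windows of Abce1 at -10 and Abcg2 at -37, and in 1.79% of all windows. Aligned to each other, the windows of Abca8a and Abca8b were identical at 47.9% of positions, beside 46.8% for Abca8a and Abca1 and 45.7% for Abca8b and Abca1.

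Other genes that LXR is known to control moved in both directions with the TBLR1 shRNA, whereas Abca1 and Abcg1 showed no call. Of 12 measured genes of the LXR list, 2 rose and 6 fell in either treatment, or, with hybridisation control centring, 3 rose and 4 fell with isoproterenol and 2 rose and 4 fell in untreated cells. Nr1h3, which encodes LXRα, read 8.69, 8.45 and 8.66 in TBLR1 cells with isoproterenol and 9.00, 9.09 and 9.13 in control cells. Nr1h3 fell by 0.47 ± 0.06 with isoproterenol (adjusted p = 3.52e-06) and by 0.43 ± 0.06 without it (adjusted p = 1.16e-05). Nr1h2, the gene of LXRβ, was not analysed here. Mylip, whose product marks the LDL receptor for breakdown, fell by 0.65 ± 0.08 with isoproterenol and 0.84 ± 0.08 without it, and Apoe, the lipoprotein gene, by 0.47 ± 0.04 with isoproterenol and 0.35 ± 0.04 without it. Pltp, which encodes a phospholipid transfer protein, rose by 0.65 ± 0.04 with isoproterenol and 0.70 ± 0.04 without it, and Srebf1, the transcription factor gene of fatty acid synthesis, by 0.57 ± 0.05 with isoproterenol and 0.42 ± 0.05 without it.

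Genes that act beside the exporters in cholesterol traffic also divided. Of 12 measured, 3 rose and 7 fell with isoproterenol (3 and 4 with hybridisation control centring), and 3 rose and 5 fell in untreated cells (4 and 4). Stard4, a sterol carrier, fell by 1.03 ± 0.06 with isoproterenol and 0.84 ± 0.06 without it, and Scarb1, the receptor of high-density lipoprotein, by 0.62 ± 0.06 with isoproterenol and 0.28 ± 0.06 without it. Npc2, which hands cholesterol out of lysosomes, rose by 0.43 ± 0.05 with isoproterenol and 0.37 ± 0.05 without it.

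**Figure D2:**
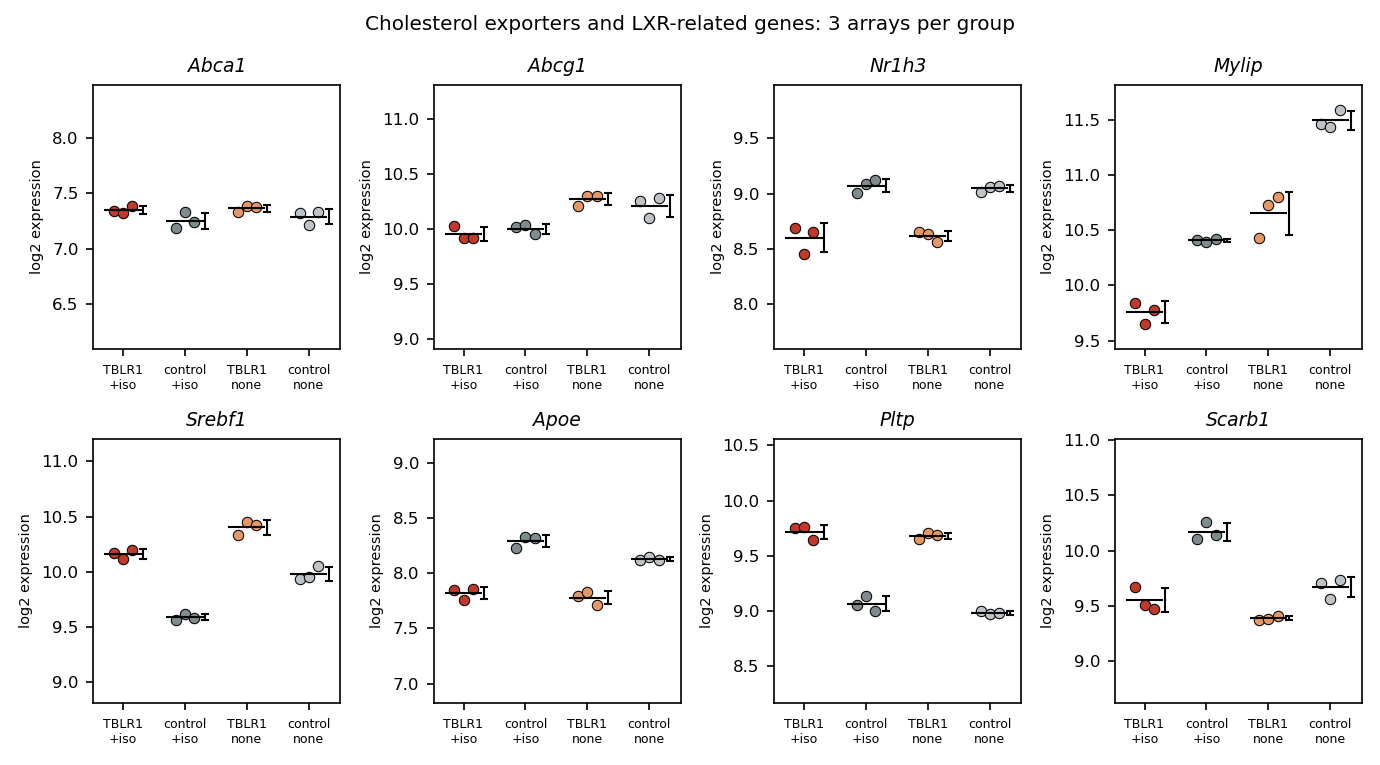
Level on the log2 scale (y axis, each panel spanning the same number of log2 units) of Abca1, Abcg1 and 6 genes of LXR signalling and cholesterol traffic in the 4 groups, TBLR1 shRNA left of control shRNA, with isoproterenol left of without. Dots are arrays, and lines with bars are the mean and SD of 3. Abca1 stays within 7.19 to 7.39 on all 12 arrays, while Nr1h3 is lower and Pltp higher on every TBLR1 array than on every control array.

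Abca8a was the most strongly lowered member. It belongs to the Abca6-like branch of the family, whose products are less studied lipid transporters, of which Abca8b has been tied to cholesterol efflux in mouse. Abca8a read 8.32, 8.46 and 8.32 in TBLR1 cells with isoproterenol and 9.88, 9.98 and 10.08 in control cells with it. Without isoproterenol Abca8a read 8.46, 8.47 and 8.56 in TBLR1 cells and 10.29, 10.22 and 10.04 in control cells. The lowest control array exceeded the highest TBLR1 array by more than 1 log2 unit in each treatment. Abca8a was 3.06-fold lower with isoproterenol (-1.61 ± 0.07, adjusted p = 2.99e-11), at 32.7% of its control signal, and 3.22-fold lower without it (-1.69 ± 0.07, adjusted p = 2.4e-11), at 31.1%. It ranked 5 among all 15267 genes by the size of its fall with isoproterenol and 2 in untreated cells. The fall kept its call under all 21 alternatives in each treatment, between -1.66 and -1.50 with isoproterenol and between -1.76 and -1.62 in untreated cells.

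The differences of the relatives of Abca8a were smaller. The genes Abca8b, Abca8a, Abca9, Abca6 and Abca5 stand side by side on chromosome 11, and 3 of the 5 were measured. Abca8b read 6.76, 6.64 and 6.70 in TBLR1 cells with isoproterenol and 6.95, 6.91 and 7.03 in control cells. Without isoproterenol Abca8b read 6.61, 6.88 and 6.83 in TBLR1 cells and 6.96, 6.97 and 6.79 in control cells, where the groups overlapped. Abca8b fell by 0.27 ± 0.07 with isoproterenol (adjusted p = 0.00353, and -0.15 with an adjusted p = 0.0731 under hybridisation control centring). Without isoproterenol the difference was -0.14 ± 0.07 (adjusted p = 0.115), and it passed without control replicate 3 (-0.20, adjusted p = 0.0354) or TBLR1 replicate 2 (-0.19, adjusted p = 0.0451). Abca6 differed by 0.10 ± 0.07 with isoproterenol and 0.05 ± 0.07 without it (adjusted p = 0.279 and 0.619), in the lower range of signal at the 13.6 percentile of genes. Whether the probes of these close relatives also bind each other's transcripts was not tested.

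Both measured transporters of peroxisomes fell. Abcd2 carries very long-chain acyl-CoA into peroxisomes and is known as a gene of fat tissue. It read 7.52, 7.34 and 7.43 in TBLR1 cells with isoproterenol and 8.12, 8.13 and 8.14 in control cells, and 7.60, 7.52 and 7.47 in TBLR1 cells against 8.25, 8.08 and 7.90 in control cells without it. No TBLR1 array reached the lowest control array. Abcd2 fell by 0.70 ± 0.07 with isoproterenol (adjusted p = 4.57e-07), to 61.6% of control, and by 0.55 ± 0.07 in untreated cells (adjusted p = 8.92e-06), to 68.5%. It was the other member beyond 1.5-fold with isoproterenol (1.62-fold).

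Abcd3, the abundant transporter of branched-chain and dicarboxylic acyl-CoA, read 10.60, 10.64 and 10.61 in TBLR1 cells with isoproterenol and 10.77, 10.78 and 10.86 in control cells. Without isoproterenol Abcd3 read 10.65, 10.70 and 10.71 in TBLR1 cells and 10.95, 10.94 and 10.996 in control cells. Its groups did not overlap in either treatment. Abcd3 fell by 0.18 ± 0.04 with isoproterenol (adjusted p = 0.00105, and -0.07 with an adjusted p = 0.363 under hybridisation control centring) and by 0.28 ± 0.04 in untreated cells (adjusted p = 3.03e-05). Among 12 other peroxisomal genes 2 rose and 7 fell with isoproterenol and 2 rose and 6 fell in untreated cells, the falls in untreated cells numbering 4 with that centring. Pex13, a gene of the import pore, fell by 0.76 ± 0.04 with isoproterenol and 0.59 ± 0.04 without it, and Hsd17b4, an enzyme of peroxisomal β-oxidation, by 0.61 ± 0.06 with isoproterenol and 0.54 ± 0.06 without it. Pex11a, which takes part in peroxisome division, rose by 0.77 ± 0.04 with isoproterenol and 0.68 ± 0.04 without it.

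Of the 14 measured genes of multidrug, conjugate and bile transport, 3 fell and 1 rose with isoproterenol, and 3 fell and 0 rose in untreated cells. Abcc4 exports cyclic nucleotides, conjugates and prostaglandins. It read 8.73, 8.74 and 8.66 in TBLR1 cells with isoproterenol and 9.21, 9.29 and 9.29 in control cells, and 8.72, 8.81 and 8.80 in TBLR1 cells against 9.10, 9.24 and 9.28 in control cells without it. The arrays of the groups lay apart in each treatment. Abcc4 fell by 0.55 ± 0.05 with isoproterenol (adjusted p = 1.9e-07), to 68.2% of control, and by 0.43 ± 0.05 in untreated cells (adjusted p = 4.06e-06), to 74.2%.

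Mice have a pair of genes for the drug exporter P-glycoprotein, and they differed in call. Abcb1b read 7.48, 7.36 and 7.44 in TBLR1 cells with isoproterenol and 7.89, 7.81 and 7.94 in control cells, and 7.16, 7.22 and 7.26 in TBLR1 cells against 7.63, 7.71 and 7.45 in control cells without it. Abcb1b fell by 0.45 ± 0.06 with isoproterenol (adjusted p = 9.65e-06), to 73.2% of control, and by 0.38 ± 0.06 in untreated cells (adjusted p = 6.83e-05), to 76.8%. Its neighbour Abcb1a, at the 14.0 percentile of signal, differed by -0.02 ± 0.04 with isoproterenol and -0.05 ± 0.04 without it (adjusted p = 0.814 and 0.487). Abcb4, the phosphatidylcholine exporter next to them on chromosome 5, differed by -0.06 ± 0.05 with isoproterenol and 0.00 ± 0.05 without it, and had no call.

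Abcc1, which exports glutathione conjugates and leukotriene C4, was the multidrug gene that rose. It read 9.52, 9.61 and 9.55 in TBLR1 cells with isoproterenol and 9.35, 9.33 and 9.36 in control cells, where the groups lay apart. Without isoproterenol Abcc1 read 9.65, 9.52 and 9.51 in TBLR1 cells and 9.46, 9.48 and 9.55 in control cells, where they overlapped. Abcc1 rose by 0.21 ± 0.05 with isoproterenol (adjusted p = 0.00103, and 0.32 with an adjusted p = 5.3e-05 under hybridisation control centring) and differed by 0.07 ± 0.05 without it (adjusted p = 0.299). Among 11 measured genes of glutathione and its regulator Nrf2, 4 rose and 5 fell in each comparison of shRNAs, and hybridisation control centring gave 4 falls with isoproterenol and 3 without it. Gstm1, a glutathione transferase, fell by 0.63 ± 0.04 with isoproterenol and 0.56 ± 0.04 without it, and Gclc, which makes glutathione's precursor, rose by 0.42 ± 0.08 with isoproterenol and 0.47 ± 0.08 without it.

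Abcc5, another exporter of cyclic nucleotides and conjugates, fell by 0.11 ± 0.04 with isoproterenol (adjusted p = 0.0261) and by 0.12 ± 0.04 without it (adjusted p = 0.0258). The call with isoproterenol ended without control replicate 1 or any TBLR1 array (adjusted p from 0.0521 to 0.129) and with hybridisation control centring (-0.00, adjusted p = 0.972). The call in untreated cells ended without control replicates 1 or 3 or TBLR1 replicates 1 or 3 (0.0727 to 0.0823), with hybridisation control centring (-0.05, adjusted p = 0.611) and after cyclic loess (-0.09, adjusted p = 0.0706). Among 7 genes of cyclic nucleotide breakdown, 1 rose and 1 fell with isoproterenol, where centring on the hybridisation controls gave 3 and 1, and 2 rose and 1 fell in untreated cells. Pde3b, the phosphodiesterase through which insulin restrains lipolysis, fell by 0.63 ± 0.09 with isoproterenol and 0.40 ± 0.09 without it. Pde4b made the largest rise of the list in untreated cells, by 0.46, and with isoproterenol no gene of the list rose by more than 0.19.

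Abcg2, the urate and drug exporter, read 10.27, 10.21 and 10.20 in TBLR1 cells with isoproterenol and 10.11, 10.10 and 10.18 in control cells. The groups did not overlap, and the difference of 0.10 ± 0.04 had an adjusted p = 0.0634. It passed with hybridisation control centring (0.21, adjusted p = 0.00696), after cyclic loess (0.13, adjusted p = 0.0125), without dim genes (adjusted p = 0.0421), with a trend and robust settings (adjusted p = 0.0499) and without control replicate 3 (0.12, adjusted p = 0.0423). In untreated cells Abcg2 differed by 0.02 ± 0.04 (adjusted p = 0.692). The other multidrug and bile genes, Abcb11, Abcc2, Abcc6, Abcc10, Abcc12 and Abcg3, lay between -0.12 and 0.06 in both comparisons and had no call.

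Of the 3 measured mitochondrial transporters, Abcb6 alone was called. Abcb6, which is tied to porphyrin transport, read 8.05, 8.23 and 8.13 in TBLR1 cells with isoproterenol and 8.42, 8.40 and 8.42 in control cells. Without isoproterenol Abcb6 read 8.17, 8.27 and 8.17 in TBLR1 cells and 8.30, 8.26 and 8.38 in control cells. Abcb6 fell by 0.27 ± 0.05 with isoproterenol (adjusted p = 0.000233), where the groups lay apart, and differed by -0.11 ± 0.05 without it (adjusted p = 0.103), where they overlapped. With hybridisation control centring the value of Abcb6 with isoproterenol was -0.16 (adjusted p = 0.0459). Abcb8 and Abcb10, which work in iron-sulphur and haem supply, lay between -0.07 and 0.01. Of 13 genes of haem and iron-sulphur synthesis 3 rose and 9 fell with isoproterenol and 3 rose and 8 fell in untreated cells. Slc25a37, the mitochondrial iron importer, rose by 1.52 ± 0.08 with isoproterenol and 1.37 ± 0.08 without it, and Alad, an early enzyme of haem synthesis, fell by 0.73 ± 0.05 with isoproterenol and 0.69 ± 0.05 without it.

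The remaining Abca genes made small changes. Abca7, a close relative of Abca1, read 7.65, 7.74 and 7.69 in TBLR1 cells with isoproterenol and 7.42, 7.53 and 7.55 in control cells, with no overlap. Abca7 rose by 0.19 ± 0.04 with isoproterenol (adjusted p = 0.00258, and 0.30 with an adjusted p = 0.000207 under hybridisation control centring) and differed by 0.08 ± 0.04 in untreated cells (adjusted p = 0.176). Abca3, which loads surfactant lipid in the lung, fell by 0.13 ± 0.05 with isoproterenol (adjusted p = 0.0288) and by 0.12 ± 0.05 without it (adjusted p = 0.0483). Abca4, the retinoid flippase of the eye, fell by 0.15 ± 0.05 with isoproterenol (adjusted p = 0.0131), and Abca2, a lysosomal sterol transporter of the brain, by 0.13 ± 0.04 with isoproterenol (adjusted p = 0.023). These 4 calls were fragile. That of Abca3 with isoproterenol ended without any control array or TBLR1 replicates 1 or 2 (adjusted p from 0.0517 to 0.111) and with array weights (-0.10, adjusted p = 0.0827). In untreated cells it ended without any array but untreated TBLR1 replicate 2 and the 3 treated TBLR1 arrays (0.0545 to 0.202 for these 8 arrays) and under 6 other settings. The call of Abca4 ended without TBLR1 replicate 3 (adjusted p = 0.0558) and that of Abca2 without control replicates 1 or 3 or TBLR1 replicates 1 or 2 (0.0551 to 0.119). With hybridisation control centring the values with isoproterenol were -0.02 for Abca3, -0.04 for Abca4 and -0.02 for Abca2 (adjusted p = 0.791, 0.599 and 0.791). Abca13 and Abca14 lay in the lowest 33% of signal and had no call. Abca4 lay there too, at the 21.2 percentile.

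The lysosomal members Abcb9, a peptide transporter, and Abcd4, which takes part in cobalamin release, had no call, nor had Abcc8 and Abcc9, the sulphonylurea receptor subunits of ATP-sensitive potassium channels. Abcc8 and Abcc9 gave low signal, at the 19.9 and 3.42 percentile of genes. Their pore partners Kcnj8 and Kcnj11 lay between -0.06 and -0.02 and had no call either. Tap1 and Tap2 encode the ABC transporter that brings peptides to MHC class I, but their symbols fall outside the naming rule. Tap1 rose by 1.45 ± 0.08 with isoproterenol and 1.20 ± 0.08 without it, and Tap2 by 1.00 ± 0.06 with isoproterenol and 0.86 ± 0.06 without it, while most called members fell.

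Among the 4 members that encode soluble ATPases, Abce1 fell. Abce1 splits ribosomes after termination and read 10.63, 10.66 and 10.68 in TBLR1 cells with isoproterenol and 10.95, 10.91 and 10.97 in control cells. Without isoproterenol Abce1 read 10.61, 10.52 and 10.60 in TBLR1 cells and 10.82, 10.85 and 10.75 in control cells, so the groups lay apart in each treatment. Abce1 fell by 0.29 ± 0.04 with isoproterenol (adjusted p = 2.57e-05, and -0.17 with an adjusted p = 0.0244 under hybridisation control centring) and by 0.24 ± 0.04 without it (adjusted p = 0.000218). Abcf1, which acts in translation initiation, read 9.36, 9.29 and 9.24 in untreated TBLR1 cells and 9.10, 9.21 and 9.11 in untreated control cells, and rose by 0.15 ± 0.05 (adjusted p = 0.0337). That call ended without control replicates 1 or 3 or TBLR1 replicates 1 or 2 (adjusted p from 0.0666 to 0.138). With isoproterenol Abcf1 differed by 0.13 ± 0.05 (adjusted p = 0.0709), and by 0.18 without TBLR1 replicate 1 (adjusted p = 0.0129), 0.16 after cyclic loess (adjusted p = 0.0268), 0.12 with array weights (adjusted p = 0.0423) and 0.24 with hybridisation control centring (adjusted p = 0.0031). Abcf2 and Abcf3 had no call. Of 5 genes of ribosome recycling and of the initiation factor eIF2, 1 rose and 1 fell with isoproterenol, or 3 and 0 with hybridisation control centring, and 3 rose and 1 fell in untreated cells. Hbs1l, a ribosome rescue factor, fell by 0.24 ± 0.05 with isoproterenol and 0.27 ± 0.05 without it, with no call for the value with isoproterenol under that centring (-0.13, adjusted p = 0.11). The 3 that rose in untreated cells were Etf1 by 0.27 ± 0.04, Pelo by 0.19 ± 0.05 and Eif2s2 by 0.19 ± 0.05.

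**Figure D3:**
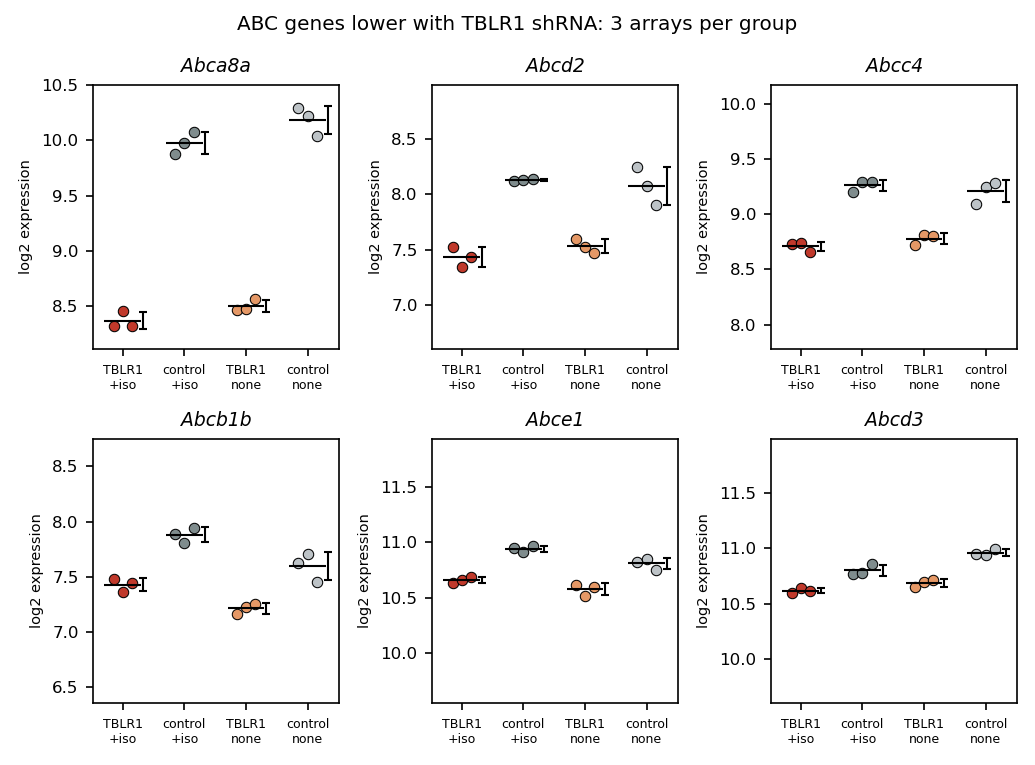
Level on the log2 scale (y axis, each panel spanning the same number of log2 units) of the 6 members that fell with the TBLR1 shRNA under every alternative in untreated cells, in the 4 groups, TBLR1 shRNA left of control shRNA, with isoproterenol left of without. Dots are arrays, and lines with bars are the mean and SD of 3. In all 6 panels each TBLR1 array lies below each control array of the same treatment, with the widest gap for Abca8a.

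Isoproterenol changed few ABC genes, and the shares called lay near those of all genes. With the TBLR1 shRNA 1 of 41 rose and 1 fell, or 4.88%, against 8.86% of all genes tested (4.09% rose and 4.78% fell), and with the control shRNA 2 rose and 4 fell, or 14.6%, against 18.6% of all genes (7.70% rose and 10.9% fell). In TBLR1 cells the median difference of the members was 0.00456, beside -0.00423 for all genes, and in control cells it was 0.0319, beside -0.00358. Their median absolute difference was no smaller in TBLR1 cells, at 0.0602 beside 0.0527 for all genes, and about equal in control cells, at 0.0596 beside 0.0599. The arrays did not overlap for 11 of 41 members in TBLR1 cells (25.2% of all genes) and for 15 of 41 in control cells (33.2%). In the highest 33% of genes by mean level, 1 of 11 members passed in TBLR1 cells (9.09%, against 17.6% of all such genes). In control cells 5 of 11 passed there (45.5%, against 31.4%). At an unadjusted p under 0.05 there were 5 members in TBLR1 cells, beside 22% of all genes, and 10 in control cells, beside 28.8% of all genes. With hybridisation control centring 0 rose and 1 fell in TBLR1 cells and 1 rose and 4 fell in control cells, and after cyclic loess 2 rose and 1 fell in TBLR1 cells and 2 rose and 2 fell in control cells. A change of at least 1.5-fold was called for 0 members with either shRNA, where 0.616% of all genes in TBLR1 cells and 1.24% in control cells had one.

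The isoproterenol fall of Abcg1 was the clearest of the exporters. Its treated arrays, given above, all lay below its untreated ones with either shRNA. Abcg1 fell by 0.32 ± 0.05 in TBLR1 cells (adjusted p = 0.00108), to 80.3% of the untreated signal, and by 0.21 ± 0.05 in control cells (adjusted p = 0.00927), to 86.5%. Both calls held under all alternatives. The difference between these falls was -0.11 ± 0.07 (adjusted p = 0.585). Abca1 differed by -0.01 ± 0.05 in TBLR1 cells (95% interval -0.11 to 0.08, adjusted p = 0.914) and by -0.04 ± 0.05 in control cells (-0.13 to 0.06, adjusted p = 0.685). Of the 12 genes of the LXR list 1 rose and 2 fell with either shRNA, the rise being lost in each under hybridisation control centring. The 2 that fell were Mylip, by 0.90 ± 0.08 in TBLR1 cells and 1.09 ± 0.08 in control cells, and Srebf1, by 0.24 ± 0.05 in TBLR1 cells and 0.39 ± 0.05 in control cells. Nr1h3 differed by -0.01 ± 0.06 in TBLR1 cells and 0.02 ± 0.06 in control cells.

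Abcb1b was the member that rose with isoproterenol under either shRNA. The rise was 0.21 ± 0.06 in TBLR1 cells (adjusted p = 0.0307) and 0.29 ± 0.06 in control cells (adjusted p = 0.00235), and treated arrays lay above untreated ones in both. The first call ended, among other settings, without any of the 3 untreated TBLR1 arrays or of treated replicates 1 and 3 (adjusted p from 0.0591 to 0.0954), and with hybridisation control centring (adjusted p = 0.0603), while the second held under all alternatives. Abcb1b thus rose with isoproterenol and fell with the TBLR1 shRNA. In control cells Abcd3 fell by 0.16 ± 0.04 (adjusted p = 0.00814), and in TBLR1 cells it differed by -0.07 ± 0.04 (adjusted p = 0.332).

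The other calls in control cells were small and rested on few arrays. Abce1 rose by 0.13 ± 0.04 (adjusted p = 0.0316), Abca8a fell by 0.21 ± 0.07 (adjusted p = 0.036), with treated and untreated arrays overlapping, and Abcc1 fell by 0.15 ± 0.05 (adjusted p = 0.0274). Abce1 lost its call, among other settings, without replicates 1 or 3 of either group (adjusted p from 0.0601 to 0.138) or with hybridisation control centring (0.08, adjusted p = 0.454). Abca8a lost it, among other settings, without replicates 1 or 2 of either group (0.0806 to 0.167), after cyclic loess (-0.18, adjusted p = 0.0739) or with the 6 arrays compared alone (adjusted p = 0.0605). Abcc1 lost it without any treated array or untreated replicates 2 or 3 (0.0536 to 0.119) or after cyclic loess (adjusted p = 0.0645). In TBLR1 cells these 3 genes differed by 0.08 ± 0.04, -0.13 ± 0.07 and -0.00 ± 0.05 and had no call. Abcg2 differed by 0.12 ± 0.04 in TBLR1 cells (adjusted p = 0.0732) and passed there after cyclic loess (0.15, adjusted p = 0.0287) and without dim genes (adjusted p = 0.0482).

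**Figure D4:**
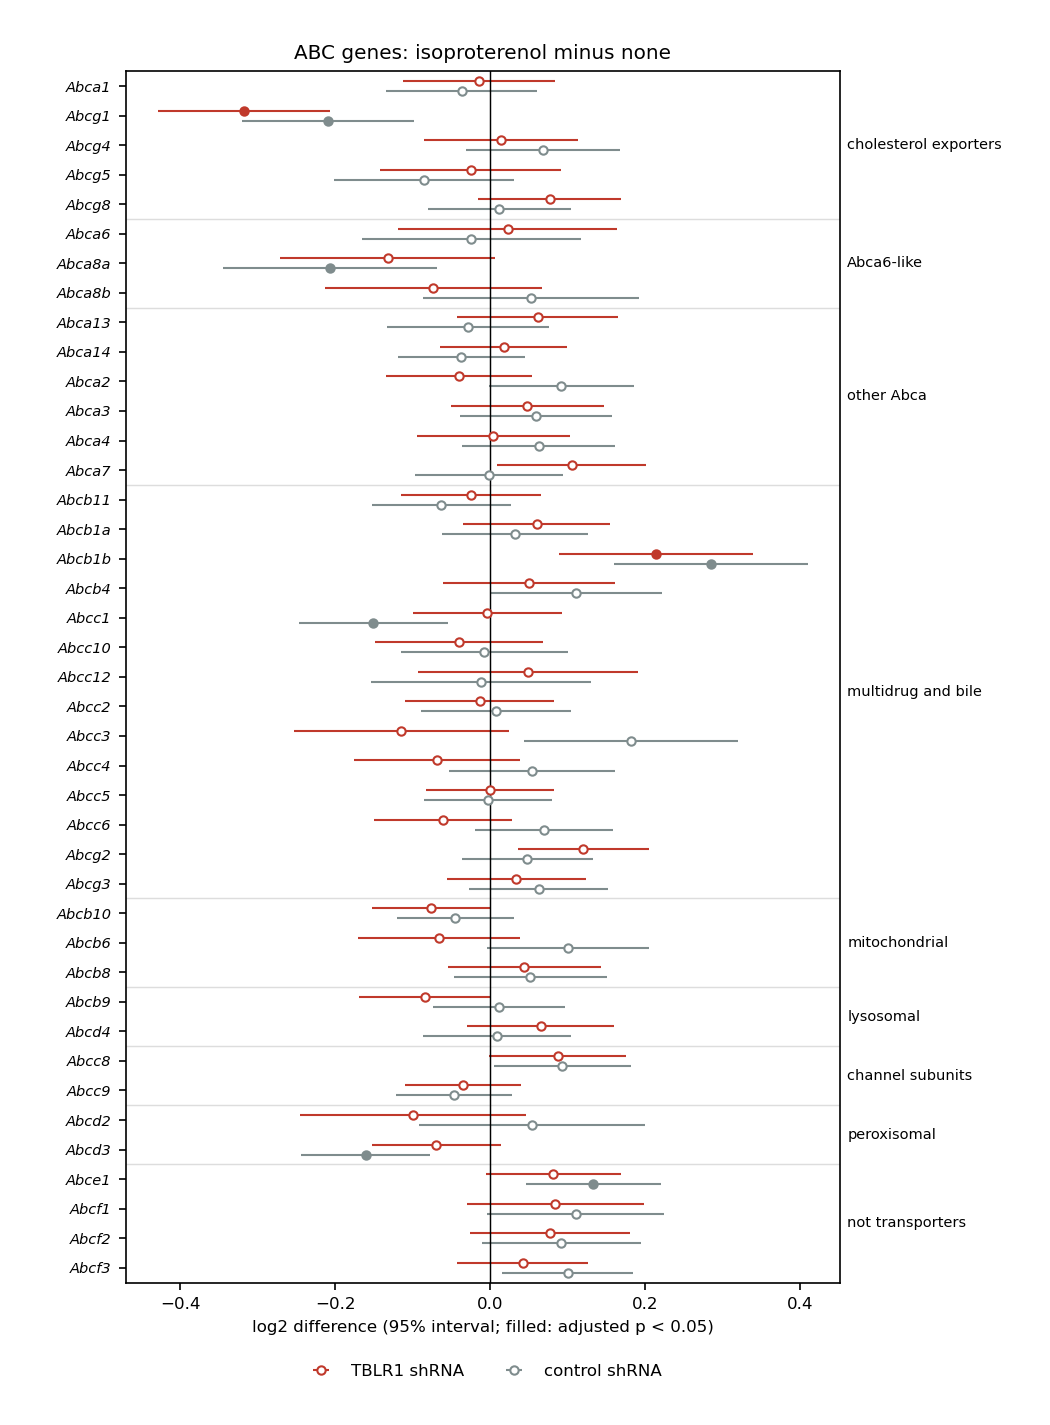
Log2 difference between isoproterenol and no treatment (x axis) for each of the 41 ABC genes (rows, grouped by role), with the TBLR1 shRNA in red and the control shRNA in grey. Points are estimates from 3 arrays per group, bars are 95% intervals, and filled points have an adjusted p under 0.05. Abcg1 lies left of 0 and Abcb1b right of 0 with filled points for both shRNAs.

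For the difference between the isoproterenol responses of TBLR1 and control cells, 0 members passed at an adjusted p under 0.05 in limma, where 2.40% of all genes passed, 1.07% higher and 1.33% lower, with 0.314% beyond 1.5-fold. At an unadjusted p under 0.05 there were 4 members, Abcc3, Abcb6, Abcc1 and Abcc6, beside 13.6% of all genes. Abcc3, an exporter of bile salts and glucuronides, read 7.24, 7.13 and 7.22 in TBLR1 cells with isoproterenol and 7.41, 7.26 and 7.36 in control cells. Without isoproterenol Abcc3 read 7.18, 7.37 and 7.38 in TBLR1 cells and 7.03, 7.26 and 7.19 in control cells. The TBLR1 arrays lay below the control arrays with isoproterenol, whereas in untreated cells the groups overlapped. The shRNA difference of Abcc3 was -0.15 ± 0.07 with isoproterenol (adjusted p = 0.0897) and 0.15 ± 0.07 without it (adjusted p = 0.0827), and the difference between the isoproterenol responses was -0.30 ± 0.09 (adjusted p = 0.124). Without TBLR1 replicate 1 of the untreated cells the last value was -0.36 and passed (adjusted p = 0.042). With isoproterenol the shRNA difference passed without control replicate 2 (-0.19, adjusted p = 0.0483) and with the 6 arrays compared alone (adjusted p = 0.0398). In untreated cells it passed without control replicate 2 or TBLR1 replicate 1 (adjusted p from 0.0178 to 0.0318) and with hybridisation control centring (0.22, adjusted p = 0.0104). For Abcb6 the difference between responses was -0.17 ± 0.07 (adjusted p = 0.291) and for Abcc1 0.15 ± 0.06 (adjusted p = 0.315). For Abca8a the difference was 0.07 ± 0.09 (95% interval -0.12 to 0.27, adjusted p = 0.793).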

How the data were processed

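Gene expression was measured in 12 samples on Affymetrix arrays. The deposited values are log2 levels per probe set, a scale read from their range of 5.391 to 14.58. The arrays were quantile normalised before deposit, as the sorted values of any pair differed by at most 0.00781, so changes are relative to the bulk of genes. How background was corrected and probes summarised is not given in the sources here. Of 16553 probe sets, 61 were controls, 1222 had no symbol in the platform annotation, which can be old, and 15270 had 1. Where a gene had several probe sets (3 genes), the brighter on average was kept, which left 15267 genes. Groups were taken from the sample labels, and no pair of arrays shared more than 0.0095 of its values.

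A model of 4 group means was fitted to the 12 arrays with limma 3.58.1 (lmFit, eBayes) in R 4.3.3, with 8 residual and 7.38 prior degrees of freedom, after tests on simulated data. The 5 contrasts set TBLR1 against control shRNA in untreated and in treated cells, set isoproterenol against none for each shRNA, and compared the responses. Two-sided p-values were adjusted by Benjamini-Hochberg over all genes. Contrasts that share a group share its arrays. The members and the gene lists were chosen with earlier results of these data known, so their counts are descriptions. All members could be named, and from each other list up to 4 called genes with the largest differences per contrast. Promoter sequences are RefSeq's, and figures were made in Python 3.11.15 with matplotlib 3.10.9. Alternatives were hybridisation control centring, cyclic loess, eBayes with trend and robust settings, array weights, only the arrays compared, a replicate block, leaving out the lowest 33% of genes, all probe sets, the mean of several probe sets, and each array left out in turn.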

Additional observations from a re-analysis of the deposited data

How the results depend on the processing

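Of 33 calls of members, 18 held under every one of 21 alternatives, 15 were lost under at least one, and 0 changed direction. The alternatives were not equally demanding. Leaving out an array of a group outside a comparison kept its estimate and moved only its p-value. The mean of several probe sets altered the values of 3 genes at most. The number of members called ran from 11 to 17 for the shRNA with isoproterenol, from 7 to 12 without it, from 1 to 3 for isoproterenol in TBLR1 cells and from 3 to 7 in control cells. With arrays left out in turn these ranges were 11 to 16, 7 to 12, 1 to 2 and 3 to 7 in the same order, and for the difference between responses 0 to 1. For isoproterenol in TBLR1 cells 1 member was called with hybridisation control centring and 1 with the replicate block. The labels do not say whether samples with the same replicate number belong together. The deviations of such samples from their group means correlated between -0.209 and 0.0936, so no strong common pattern across genes was seen. A shift of whole arrays could not show in this check, since the arrays had been quantile normalised. Samples with unlike replicate numbers were not compared. With the replicate block 15 members were called for the shRNA with isoproterenol and 9 without it, 1 for isoproterenol in TBLR1 cells and 4 in control cells, and 0 for the difference. With it the isoproterenol calls of Abcb1b in TBLR1 cells (0.21, adjusted p = 0.0534) and of Abca8a (-0.21, adjusted p = 0.0538) and Abce1 (0.13, adjusted p = 0.0506) in control cells and the untreated shRNA call of Abca3 (-0.12, adjusted p = 0.0698) were lost. Hybridisation control centring turned the uncalled shRNA differences with isoproterenol of Abcg1 to 0.0649 and Abcg4 to 0.00528, and with arrays left out in turn the uncalled isoproterenol difference of Abca1 in TBLR1 cells ran from -0.0327 to 0.00098, where treated TBLR1 replicate 2 was left out. For these the cause was not tested. The hybridisation controls themselves read 11.168 ± 0.042 in TBLR1 cells and 11.28 ± 0.081 in control cells with isoproterenol, and 11.161 ± 0.019 in TBLR1 cells and 11.231 ± 0.021 in control cells without it (SD, n = 3). Their spread enters every gene under that centring. Signal near the floor limits 11 members in the lowest 33% of genes.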
